A study of Mus musculus with 5 samples.

Results

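Transcripts of 9 genes were examined, out of 18193 genes with a probe set of their own on the array. They are Hes and Hey family genes, feedback regulators of Notch signalling, and Rbpj, which encodes the pathway's DNA-binding protein. The cells were sorted long-term haematopoietic stem cells (LT-HSCs) of mice that had lost the transcription factor LRF, which is encoded by Zbtb7a, and of controls. The genes were chosen by name and were Hes1, Hes5, Hes6, Hey1, Hey2, Heyl, Nrarp, Dtx1 and Rbpj. All 17 probe sets (groups of short probes that measure 1 transcript) that the platform annotation assigns to 1 of them alone were used. The study asked which transcripts of LT-HSCs change when Lrf is lost, with 2 control arrays (Zbtb7a Flox/+ Mx1-Cre+) and 3 knockout arrays (Zbtb7a Flox/Flox Mx1-Cre+) from C57BL/6 mice aged 4 weeks. Every animal, controls included, carried at least 1 floxed allele and the Cre transgene and received 2 injections of pIpC (250 µg), a double-stranded RNA analogue that induces interferon, and cells were taken on day 9. The sort kept LSK cells (lineage-negative, Sca-1-positive, Kit-positive) that carried CD150 and lacked CD48, Flt3 and IL7Ra. The Mx1 promoter that drives Cre responds to interferon and is not restricted to blood cells, so other cells of these animals can have lost the gene too. The controls are heterozygous in cells that Cre has recombined, and the label of knockout replicate 3 names 2 animals where the others name 1, so the arrays need not each stand for a single mouse. P-values measure the spread between these samples.

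Notch receptors are cut after they bind a ligand on a neighbouring cell, and the freed intracellular part enters the nucleus, binds the DNA-binding protein RBPJ and turns RBPJ from a repressor into an activator. Hes and Hey genes, which encode basic helix-loop-helix repressors, are the best known direct targets, and several of them repress their own promoters. Nrarp and Dtx1 are also targets, and their products act back on the pathway. In blood, Notch signalling directs lymphoid progenitors to the T cell fate, and loss of LRF is known for Notch-dependent changes of lymphoid fate.

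The start regions of these genes show what RBPJ could read there. RefSeq promoter windows (build GRCm38.p6, 250 bases before to 50 after a start) were matched by symbol for 6 of the 9 genes, 8 windows in all, and there was none for Hes1, Hey1 and Heyl. The RBPJ core GTGGGAA, searched on both strands (reverse complement TTCCCAC), was found in 2 of these windows, those of Hes5 and Hey2, and in 6.38% of all 32851 windows. Both held it in 2 places, 1 on each strand, and 0.256% of all windows held it more than once. These windows are shown because they carry a pair of the letters that RBPJ binds. Matches are in capitals.
Hes5: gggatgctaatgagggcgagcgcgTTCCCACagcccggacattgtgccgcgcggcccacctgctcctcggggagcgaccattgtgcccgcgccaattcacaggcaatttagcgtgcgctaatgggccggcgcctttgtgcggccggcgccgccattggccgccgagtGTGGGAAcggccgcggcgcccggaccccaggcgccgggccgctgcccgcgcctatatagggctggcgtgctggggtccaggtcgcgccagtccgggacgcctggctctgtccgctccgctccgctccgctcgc
Hey2: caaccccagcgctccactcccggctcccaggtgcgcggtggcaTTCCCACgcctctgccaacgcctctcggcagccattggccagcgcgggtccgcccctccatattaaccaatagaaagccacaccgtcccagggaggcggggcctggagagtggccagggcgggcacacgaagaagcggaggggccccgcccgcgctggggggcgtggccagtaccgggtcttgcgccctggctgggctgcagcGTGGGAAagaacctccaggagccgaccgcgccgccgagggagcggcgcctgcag
The Hes5 window lies at chr4:154960673-154960972 on the plus strand, with matches that begin at positions -226 and -83 from the start, and the Hey2 window at chr10:30842734-30843033 on the minus strand, with matches at -207 and -4. The windows of Hes6, Nrarp, Dtx1 and Rbpj did not hold these 7 letters. The N box CACNAG, a string that Hes repressors bind, was searched in the same way. It occurred in 3 of the 8 windows, those of Nrarp, Dtx1 and 1 of Hes6, against 42.5% of all windows. Related strings were searched too. CACGCG occurred in the Dtx1 window alone (9.27% of all windows) and CACGTG in the Nrarp window alone (7.15% of all windows). A match is a string of letters and not a measured site.

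The arrays resembled each other in overall intensity, with median log2 values of 6.38 to 6.40. Knockout replicate 2 stood apart. It correlated with the other arrays at 0.945 to 0.970 across 45037 probe sets (a description, since probe sets do not replicate each other), and every other pair at 0.977 to 0.990. As a check of RNA length, the 3' probe set of Actb exceeded the 5' one by 3.85 on that array and 4.90 to 5.21 on the others. The brightest Zbtb7a probe set read 8.22 and 8.36 in controls and 8.72, 8.33 and 9.06 in knockouts, so the groups overlapped (difference 0.41, SE 0.26). The other 2 Zbtb7a probe sets differed by -0.36 and -0.054, the former with knockout replicates 1 and 3 (7.97 and 7.70) below both controls. What part of the gene was deleted and where the probes lie were not analysed here. Of 8 markers of stem cells and the sort, 6 were matched and all 6 lay above the low-value filter, which left out probe sets with a mean log2 value under 5.77 over the 5 arrays. The log2 of their summed intensity was 12.65 and 13.61 in controls and 12.96, 10.81 and 13.05 in knockouts, lowest in knockout replicate 2. All 6 had a negative difference, from -0.58 (Tek) to -1.20 (Hlf) with a median of -0.76, though the groups overlapped for each. Of all genes tested, 43.6% had a difference above 0. Il7r and Flt3, whose proteins the sort excluded, were also above the filter on average. Il7r read 6.21 and 7.30 in controls and 9.35, 10.50 and 7.44 in knockouts (difference 2.34, SE 0.98), every knockout above both controls. Flt3 overlapped between the groups (difference -0.38, SE 0.40).

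Of the 17 member probe sets, 12 passed the filter and were tested with limma over 27022 probe sets, and they represent 8 of the 9 genes. None of the 12 passed at a Benjamini-Hochberg adjusted p under 0.05, and neither did any other probe set (0 of 27022, 0%). At an unadjusted limma p under 0.05, 1 of the 12 passed, the probe set of Hes1, against 306 of 27022 (1.13%). That probe set was also the 1 of 12 with every knockout array above both controls, against 3.61% of all probe sets tested, and 0 of 12 lay below both controls, against 4.34%. Counted by gene on the brightest probe set, 3 of the 8 tested had a difference above 0 (43.6% of all genes tested), 4 below 0 and 1 of exactly 0, with a median log2 difference of -0.0049 beside -0.030 over 12813 genes. Hes1 was thus the single member with separated groups.

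**Figure D1:**
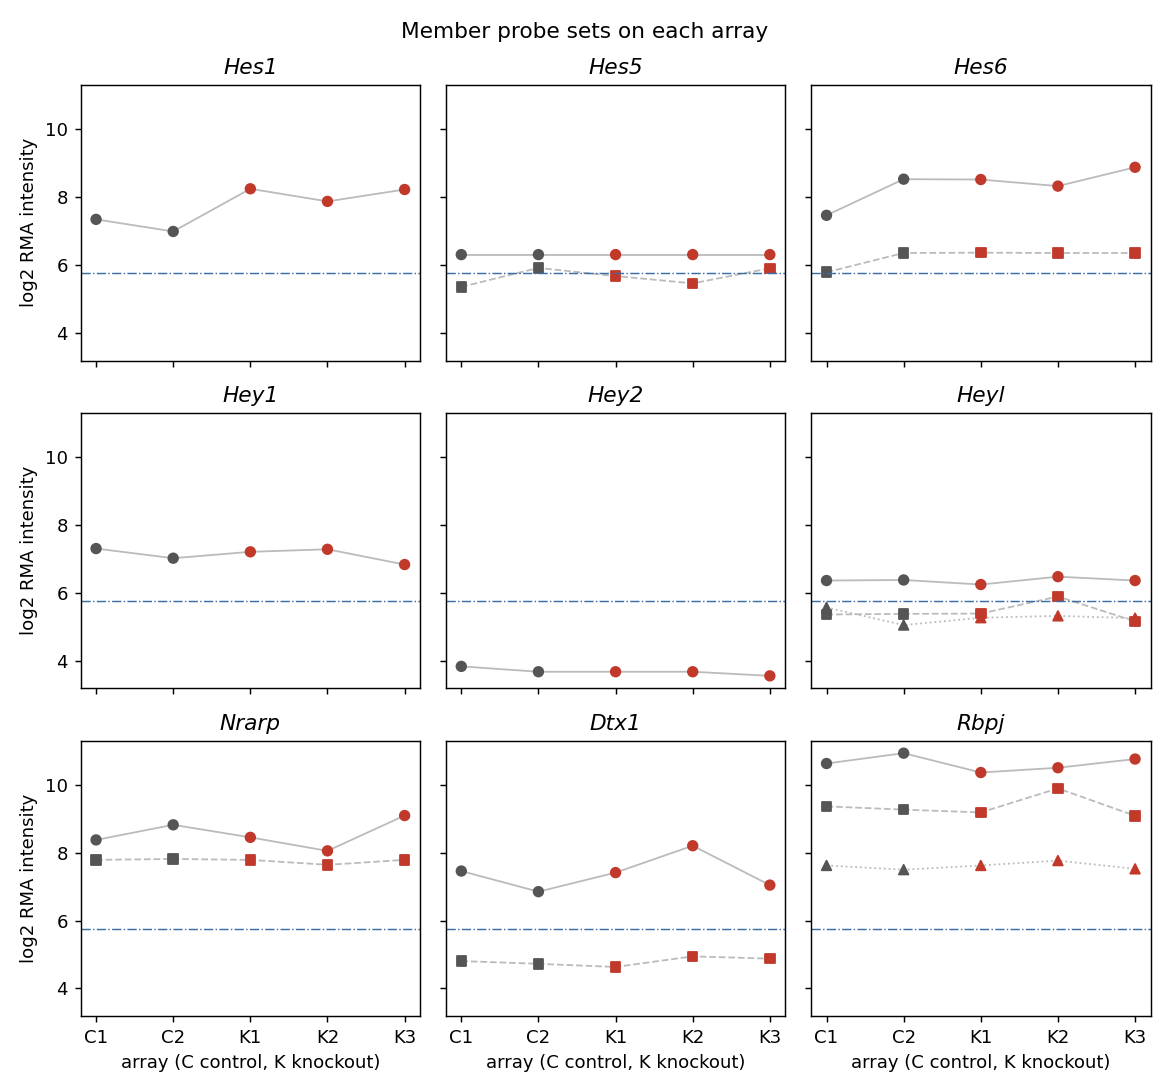
Log2 RMA intensity (vertical axis) of every member probe set on 5 arrays (C1 and C2 control in grey, K1 to K3 knockout in red), with marker shape and line style telling the probe sets of a gene apart, lines only joining points of 1 probe set, and the blue line at the filter level of 5.77. Hes1 is the gene in which all 3 knockout arrays lie above both controls (7.88 or more against 7.35 or less).

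Hes1 encodes the transcriptional repressor that is the most widely used readout of Notch activity in blood cells. Its probe set read 7.35 and 6.99 in control replicates 1 and 2 and 8.25, 7.88 and 8.23 in knockout replicates 1, 2 and 3. All knockouts lay above both controls, and the gap from the lowest knockout to the highest control (0.53) was wider than the distance between the controls (0.36) or the distance from the lowest to the highest knockout. The log2 difference was 0.95 (SE 0.21, 95% interval 0.41 to 1.49), or 1.93-fold with an interval of 1.32 to 2.81 (limma unadjusted p = 0.00695, adjusted p = 1 over all probe sets). The difference missed the threshold. Of 12813 genes, Hes1 ranked 14 by unadjusted p and 127 by size of a difference with knockouts higher. Groups did not overlap with knockouts higher for 344 genes, and 49 of these, Hes1 included, had a difference at least that of Hes1. Leaving out single arrays gave differences between 0.77 (without control replicate 2) and 1.13 (without control replicate 1), and 1.07 without knockout replicate 2. The adjusted p ranged from 0.856 to 1 over all 12 alternatives. RNA was measured in bulk, so more cells with the transcript and more transcript per cell cannot be told apart.

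Hes5, a repressor that responds to Notch strongly in neural progenitors, showed no difference. Its brighter probe set was listed at exactly 6.31 on all 5 arrays. Such repeats were common in the deposited table, in which 286 of 45037 probe sets had 1 value on all arrays and 42.6% shared a value between at least some arrays, so the spread of these probe sets is not a measure of precision. The moderated 95% interval of the Hes5 difference was -0.33 to 0.33. The other Hes5 probe set lay below the filter, read 5.35 and 5.91 in controls and 5.67, 5.46 and 5.90 in knockouts, and differed by 0.045 (SE 0.23, from the fit without a filter). Its controls lay further apart than any of its knockout arrays did from the control mean.

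Hes6, which differs from its relatives in that its product antagonises Hes1, had 2 probe sets. The brighter read 7.47 and 8.53 in controls and 8.52, 8.33 and 8.88 in knockouts. Control replicate 1 was low and control replicate 2 lay among the knockouts, so the groups overlapped. The log2 difference was 0.58 (SE 0.38, interval -0.42 to 1.58; limma unadjusted p = 0.193), and it was 0.045 without control replicate 1 and 1.11 without control replicate 2. The other probe set showed the same single low array, at 5.79 in control replicate 1 and 6.36 on each of the other 4 arrays, with a difference of 0.29 (SE 0.21; 0.0028 without control replicate 1). The Hes6 difference therefore rested on 1 control array in both probe sets. Names with _x_at, as the brighter Hes6 and the dimmer Hes5 probe set have, mark probes that similar transcripts can share.

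The Hey genes, relatives of Hes that act mainly in vessels and heart, were flat or dim. Hey1 read 7.31 and 7.02 in controls and 7.21, 7.29 and 6.84 in knockouts, a difference of -0.054 (SE 0.21, interval -0.60 to 0.50). Its highest and lowest arrays were a control and a knockout, and the remaining arrays mixed between them. Hey2 was the gene with no probe set above the filter and read 3.83 and 3.67 in controls and 3.67, 3.67 and 3.55 in knockouts. At this level the array gives no measure of a change in Hey2 (difference -0.12, SE 0.093, without a filter). Heyl had 3 probe sets, of which the brightest read 6.36 and 6.38 in controls and 6.25, 6.48 and 6.36 in knockouts (difference -0.0098, SE 0.14, interval -0.39 to 0.37). The other Heyl probe sets lay below the filter and differed by 0.11 (SE 0.24) and -0.029 (SE 0.18).

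Nrarp, an ankyrin repeat protein that Notch induces and that promotes the loss of the active receptor fragment, varied between arrays without following the groups. Its brighter probe set read 8.38 and 8.83 in controls and 8.46, 8.06 and 9.10 in knockouts. Knockout replicates 2 and 3 were the lowest and the highest of all arrays. The difference was -0.065 (SE 0.36), and its interval of -1.02 to 0.89 (0.49-fold to 1.85-fold) leaves room for sizeable changes in either direction. The second Nrarp probe set was listed at 7.80 on 3 arrays, at 7.82 in control replicate 2 and at 7.65 in knockout replicate 2 (difference -0.062, SE 0.14).

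Dtx1, which encodes the ubiquitin ligase Deltex and is switched on by Notch in early T cells, was highest in knockout replicate 2. Its brighter probe set read 7.47 and 6.86 in controls and 7.42, 8.21 and 7.05 in knockouts, and the other 2 knockouts lay between the controls. The difference was 0.40 (SE 0.42, interval -0.70 to 1.49), and 0.073 without knockout replicate 2. On that array the 3' to 5' difference of Actb was lowest. The summed intensities of the B lineage and immediate early markers described below were highest there. The part of any of these in the Dtx1 value was not tested. The dimmer Dtx1 probe set, below the filter, read from 4.64 to 4.95 over all arrays (difference 0.052, SE 0.12).

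Rbpj, the DNA-binding partner of all Notch receptors, was measured by 3 probe sets that did not separate the groups. The brightest read 10.64 and 10.94 in controls and 10.37, 10.51 and 10.77 in knockouts. Knockout replicates 1 and 2 lay below both controls and knockout replicate 3 lay between them (difference -0.24, SE 0.20, interval -0.76 to 0.28). The second read 9.37 and 9.28 in controls and 9.20, 9.90 and 9.10 in knockouts, with knockout replicate 2 above every other array (difference 0.073, SE 0.29; -0.18 without that replicate). The third differed by 0.077 (SE 0.15). The probe sets thus gave differences of opposite sign, and each interval included 0.

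**Figure D2:**
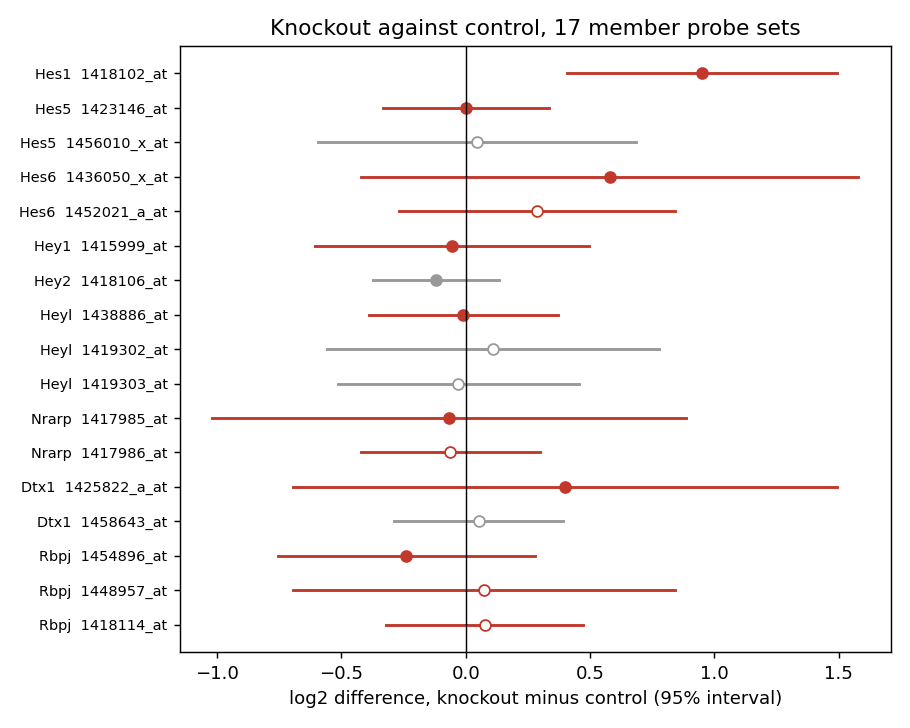
Log2 difference of knockout minus control (points) with limma's 95% interval (lines) for all 17 member probe sets, where filled points are the brightest probe set of a gene, red marks probe sets above the filter and grey those below it, which come from the fit without a filter. The interval of Hes1 (0.41 to 1.49) lies above 0 and the other 16 include it.

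The intervals of the genes other than Hes1 can be set beside its difference. For 14 of their 16 probe sets the upper bound lay under 0.95, the difference measured for Hes1, and 9 of these 14 were above the filter. The 14 include the Hey2 probe set, too dim to measure a change, and the Hes5 probe set with 1 value on all arrays. Of all 17 member probe sets, 6 had a value repeated between arrays, so their intervals do not measure precision and bound little. The exceptions were the brighter probe sets of Hes6 (upper bound 1.58) and Dtx1 (1.49). RMA compresses the differences of dim probe sets, and the difference between genes was not tested, so these bounds do not rank the genes.

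Some marker lists moved with the groups in which Hes1 differed. These and the lists below were chosen with earlier results of these data known. Their counts beside the shares of all genes therefore describe the lists and do not test them. Of 7 early lymphoid genes, all measured above the filter, 4 had every knockout above both controls and 0 had every knockout below (2.68% and 4.5% of all genes tested), with a median difference of 0.95. The log2 of their summed intensity was 11.25 to 11.88 in controls and 12.23 to 12.92 in knockouts. Dntt and Cnn3 were the brightest genes in this sum. Cnn3 separated the groups, while Dntt overlapped (9.38 and 10.57 in controls and 11.66, 11.05 and 10.33 in knockouts). Flt3 was the only gene of the 7 with a negative difference (-0.38). Whether the sum would separate the groups without Cnn3 was not tested. Rag1, the recombinase gene, read 6.94 and 6.86 in controls and 9.40, 9.87 and 8.38 in knockouts. Of 11 macrophage genes, all above the filter, 8 had every knockout below both controls, and all 11 had a negative difference. The summed intensity of the 11 was 13.78 to 14.83 in controls and 12.16 to 13.71 in knockouts. Knockout replicate 2 (13.71) thus lay only just below control replicate 2 (13.78). Cd68, Adgre1 and Csf1r overlapped between the groups. Csf1r read 12.43 and 11.09 in controls and 9.99, 13.19 and 10.90 in knockouts. Of 8 interferon response genes, all above the filter, 6 had every knockout above both controls, and the median difference was 1.52. Relative to the control mean, the list median lay at 3.26, 0.96 and 0.44 in knockout replicates 1, 2 and 3. Mx1, an antiviral GTPase gene, read 5.47 and 6.32 in controls and 10.77, 7.30 and 7.14 in knockouts. The summed intensity of this list overlapped between the groups (11.81 to 13.43 in controls and 11.95 to 14.67 in knockouts), and its brightest gene, Rsad2, overlapped too. The part of lymphoid, macrophage or interferon-induced transcripts in the Hes1 difference was not tested.

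The T lineage, B lineage, endothelial and immediate early lists each had at most 1 tested gene with every knockout above both controls. Each had at most 1 with every knockout below (2.68% and 4.5% of all genes tested). Differences were positive for 7 of 8 T lineage, 7 of 7 B lineage, 4 of 6 endothelial and 8 of 8 immediate early genes (43.6% of all genes). The medians were 0.25, 0.51, 0.075 and 1.14 in that order. T lineage markers, of which 11 of 12 were matched and 8 lay above the filter, had summed intensities of 10.28 to 10.31 in controls and 10.21 to 10.72 in knockouts. Cd3g, Cd5 and Cd8b1 were below the filter. Of these, Cd3g had every knockout above both controls (difference 0.84, SE 0.31, without a filter), and Cd5 and Cd8b1 overlapped. B lineage markers, with 7 of 8 matched, stood at 12.36 in knockout replicate 2 and at 10.20 to 10.83 on the other arrays. Endothelial markers, included because endothelial cells express Hey genes and Nrarp, had 9 of 9 matched and 6 above the filter. Their sums were 10.02 to 10.32 in controls and 9.55 to 10.11 in knockouts, and Cdh5, Emcn and Lyve1 were below the filter. Immediate early genes, which mark stress during cell handling, reached 15.33 in knockout replicate 2 against 10.96 to 11.58 elsewhere. Hes1 was lowest among the knockouts on that array.

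**Figure D3:**
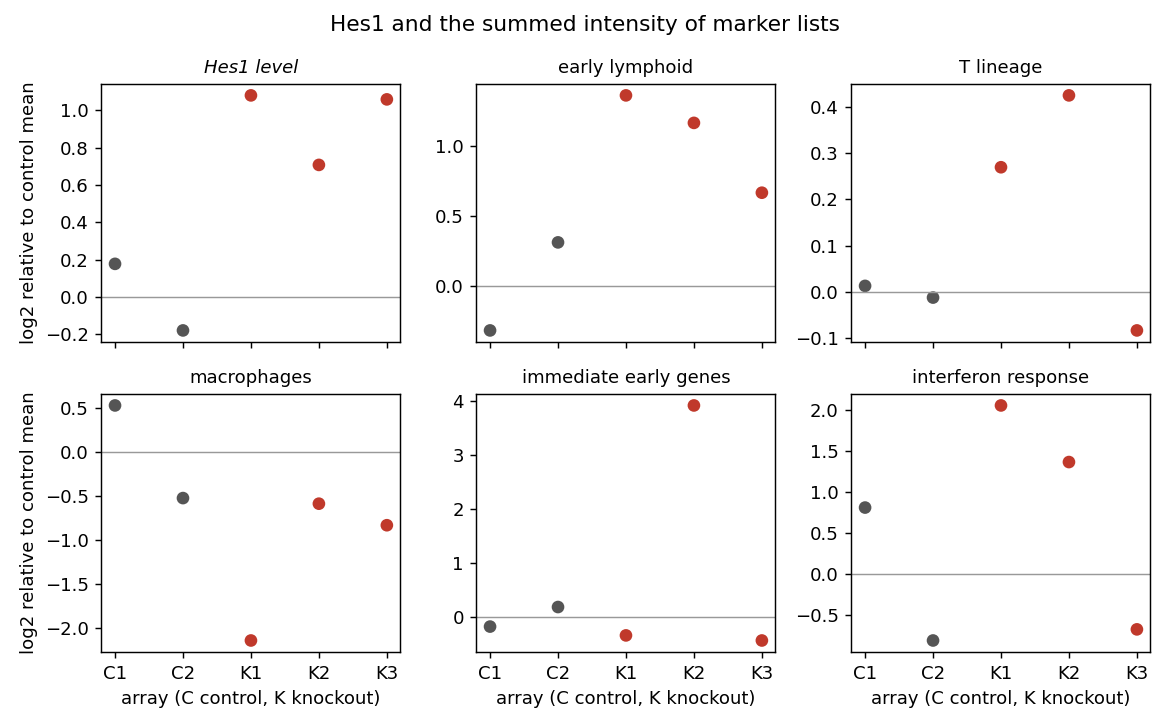
Log2 level of Hes1 and log2 summed intensity of 5 marker lists relative to the control mean (vertical axes, each panel with its own scale) on 5 arrays (C control in grey, K knockout in red). The sums of early lymphoid genes, led by Dntt and Cnn3, are higher and those of macrophage genes lower on all knockout arrays. In K2 the macrophage sum lies only just below that of C2. Immediate early genes stand out in K2, and the interferon sum, led by its brightest gene Rsad2, overlaps between the groups.

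Genes were also ranked by how closely their values followed those of Hes1 over the 5 arrays, as the root mean square distance after centring each gene on its own mean. Among the 12813 genes tested, the 5 nearest were Slc12a5, a potassium-chloride cotransporter (distance 0.176), the calponin gene Cnn3 (0.181), 4921525O09Rik (0.183), the proteoglycan gene Agrn (0.205) and the carbonic anhydrase gene Car7 (0.206). Cnn3 read 10.11 and 10.15 in controls and 11.31, 10.60 and 11.33 in knockouts, lowest among the knockouts in replicate 2, as Hes1 was. Knockout replicate 2 was the single highest or lowest array for 64.6% of all probe sets tested. Cnn3 is also 1 of the 7 early lymphoid genes above. Agrn and Car7 differed by 0.66 and 0.70, and none of the 5 passed (limma adjusted p = 1 for each). The 7 other members tested lay at distances of 0.496 to 0.642. The lowest of these belongs to Hes5, whose constant value gives the distance of any flat gene and shows no likeness.

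**Figure D4:**
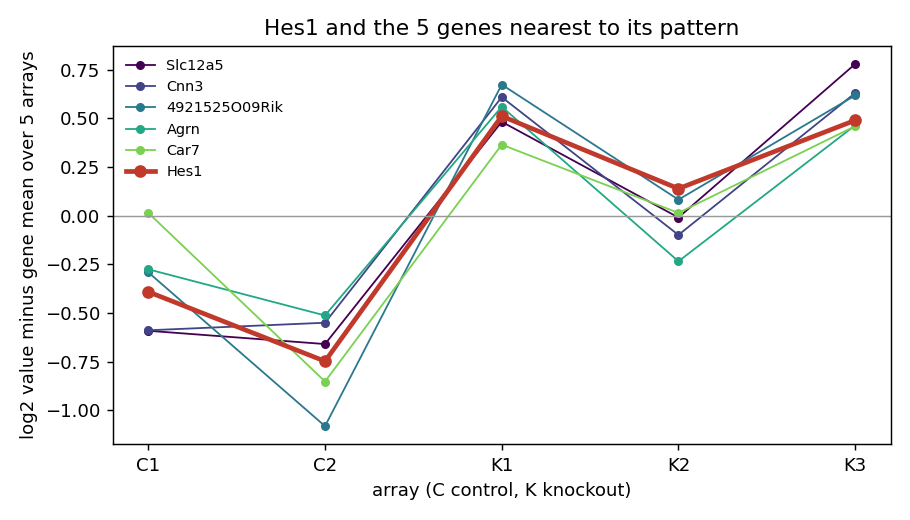
Log2 value minus the gene's mean over 5 arrays (vertical axis) for Hes1 (thick red line) and the 5 genes at the smallest root mean square distance from it (0.176 to 0.206), on control arrays C1 and C2 and knockout arrays K1 to K3; lines only join points of 1 gene. The genes were picked for this likeness, which the plot describes and does not test.

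The wider pathway was read from 7 further lists of 77 genes, of which 71 had a probe set of their own and 63 were tested. Of these 63, 0 passed over all probe sets (limma), 1 was higher and 2 were lower at an unadjusted p under 0.05 (0.96% of genes in either direction), and their median difference was -0.0060. Groups did not overlap for 5 with knockouts higher and 3 with knockouts lower (2.68% and 4.5% of all genes).

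Among receptors and ligands, 6 of 7 tested genes had positive differences, with a median of 0.27. Notch3, a receptor gene that is itself a Notch target, read 7.38 and 7.44 in controls and 8.64, 7.57 and 8.51 in knockouts (difference 0.83, SE 0.37). It was lowest among the knockouts in replicate 2, as Hes1 was. That array was the single highest or lowest for 64.6% of all probe sets tested. The ligand gene Dll1 differed by 0.27 (SE 0.18). Dll3, Jag1 and Notch4 were below the filter. Among genes for processing and turnover of the receptors, 7 of 20 were positive and the median was -0.033. Nedd4, a ubiquitin ligase, had every knockout below both controls (difference -1.005, SE 0.43), and Aph1a, a gamma-secretase subunit, every knockout above (0.27, SE 0.17).

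Among coactivators and corepressors of RBPJ, 6 of 11 were positive, the median was 0.028 and groups overlapped for all 11. Cir1, a corepressor that binds RBPJ, differed by 0.40 (SE 0.24) and Ctbp2 by -0.30 (SE 0.18). The Groucho genes, a family that includes corepressors which bind Hes proteins, had 3 of 6 positive. Tle5, which encodes a short family member, read 7.52 and 7.72 in controls and 7.24, 7.30 and 7.14 in knockouts (difference -0.39, SE 0.15). Tle3 read 9.82 and 9.58 in controls and 9.99, 10.73 and 10.07 in knockouts (difference 0.56, SE 0.28). These genes thus lay on opposite sides.

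Other Notch targets of blood cells had 4 of 12 positive and a median of -0.17. Bcl11b, the T lineage commitment factor, read 6.54 and 6.03 in controls and 9.87, 7.77 and 7.80 in knockouts (difference 2.20, SE 0.75). Ccnd1, which encodes cyclin D1, lay the other way, at 8.28 and 8.54 in controls and 7.66, 7.74 and 7.21 in knockouts (difference -0.88, SE 0.23). Cdkn1a, the cell cycle inhibitor p21, had every knockout above both controls (0.65, SE 0.36), and Il2ra, a receptor of T cell progenitors, differed by 0.65 (SE 0.35). None of these passed over all probe sets (limma adjusted p = 1).

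**Figure D5:**
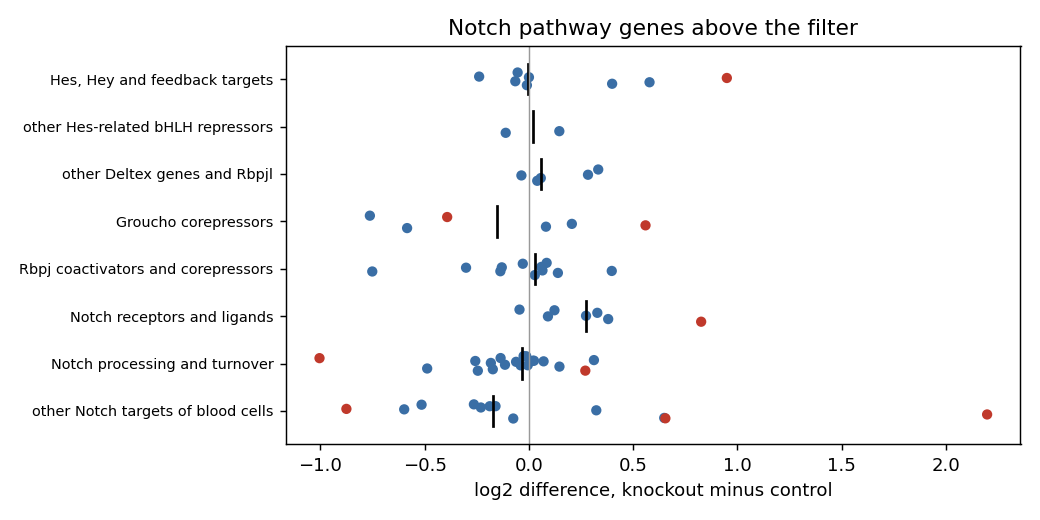
Log2 difference of knockout minus control (horizontal axis) for each gene above the filter in 8 lists of Notch pathway genes, where a point is a gene on its brightest probe set, red marks genes whose groups do not overlap and black bars are list medians. Medians run from -0.17 to 0.27, and Bcl11b (2.20) and Hes1 (0.95) lie furthest to the right.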

How the data were processed

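RNA of sorted LT-HSCs was hybridised to 5 Affymetrix arrays after 2 rounds of in vitro transcription, per the labels' protocols, which favours the 3' parts of mRNAs. Each array has 1 log2 intensity per probe set, which the authors deposited after RMA; the submitters' processing notes name Affymetrix Expression Console, without a version. RMA removes shifts shared by most transcripts. Control probe sets (64) and the 40% of probe sets with the lowest mean were left out, and the remaining 27022 were tested with limma 3.58.1 under R 4.3.3 (lmFit, eBayes, no covariate, two-sided, Benjamini-Hochberg over all of them). Errors are moderated SEs. Intervals are at 95%. Members below the filter were fitted without it. The number of arrays limits the precision. The fit was tested on simulated data, in which a probe set had independent noise of equal size on every array. Values repeated between arrays and an array that stands apart, both present here, were not simulated. Probe sets with 1 gene symbol (34945, against 932 with several and 9160 with none) were named, and the brightest stands for its gene. Named genes are all members and, per further list, up to 4 tested genes of smallest p, plus the 5 nearest to Hes1. Members and lists were chosen with earlier results of these data known. Figures used matplotlib 3.10.9.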

Additional observations from a re-analysis of the deposited data

How the results depend on the processing

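No probe set of any gene passed the threshold under the 12 alternatives run for the whole table, so the count over the members stayed at 0 too (limma; 174 to 1160 probe sets had an unadjusted p under 0.05). Of 195 member values recomputed, 179 were counted as keeping their direction and their side of the threshold and 16 changed sign, all from values of 0.11 or less in size. The 179 include the values of the brighter Hes5 probe set, whose difference of exactly 0 has no direction to keep (-0.016 with cyclic loess). With array weights Hey1 became 0.0045, the dimmer Dtx1 probe set -0.084 and the second Rbpj probe set -0.13. With the replicate block the dimmer Hes5 probe set became -0.068 and Hey1 0.083, and the Hes1 difference was 0.89 (limma unadjusted p = 0.0519, against 0.00695 without the block). The replicate numbers give 2 pairs at most, and the differences between numbers 1 and 2 ran opposite in controls and knockouts (r = -0.58 across 27022 probe sets). Knockout replicate 2 stood apart from all other arrays, so this correlation cannot decide whether arrays of the same number belong together. Leaving out single arrays gave -0.24 to 0.32 for the dimmer Hes5 probe set, -0.20 to 0.088 for Hey1, -0.067 to 0.048, -0.097 to 0.27 and -0.29 to 0.23 for the 3 Heyl probe sets, -0.35 to 0.17 for the brighter Nrarp, -0.011 to 0.15 for the dimmer Dtx1 and -0.18 to 0.22 for the second Rbpj probe set; the cause was not tested. Where a control is left out, the lone control is assumed to vary like the knockouts. Detection calls were not used here, so the filter level stands in for signal over background.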

Other observations

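Bhlhe40, a repressor related to the Hes family, read 7.95 and 7.60 in controls and 6.50, 9.26 and 7.22 in knockouts, highest in knockout replicate 2, where immediate early genes were also highest. Dtx3l, a Deltex relative known as interferon-responsive, read 9.91 and 10.47 in controls and 11.27, 9.85 and 10.43 in knockouts, highest in knockout replicate 1, where interferon response genes were also highest. Neither separated the groups, and the part of these lists in their values was not tested.

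Knockout replicate 2 was the single highest or lowest array for 6 of the 12 member probe sets tested (50%) and for 64.6% of all 27022 probe sets tested.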
